A study of Mus musculus with 2 samples.

Results

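The genes described here are 10 genes of the photoreceptor outer segment and its surroundings, of 31053 genes in the expression matrix. They were taken as a named list: Prph2, Rom1 and Abca4 of the disc rim, Prom1 and Cdhr1 of disc formation, Rp1 and Rp1l1 of the axoneme, Impg1 and Impg2 of the interphotoreceptor matrix, and Crb1 of the apical junctions. All 10 had unique molecular identifiers (UMIs, counts of single captured RNA molecules) in rods. They were followed across rods and other cell classes, across the 3 sample tags, and between rods of low and high mitochondrial share.

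The study asked how tethering of heterochromatin to the nuclear envelope affects gene expression in rods. Mouse retinas were electroporated as neonates with the pCIG2 vector, which carries an IRES2-EGFP reporter, either empty (Control) or with lamin A (Lmna) or Lbr, and viable EGFP+ cells of adult retinas were sorted. The cells of each condition were stained with 1 lipid-anchored oligonucleotide tag and pooled in 1 run of the 10x Genomics Chromium platform. The labels do not tie a tag to a condition, so the groups are called tag 1, tag 2 and tag 3. The study's methods list 264, 316 and 41 rods that passed quality filters for Control, lamin A and Lbr. These equal the numbers of barcodes called for tags 1, 2 and 3 in that order, but no group was set from them. The calls are of barcodes of any class, before any filter. The retinas were wild-type, from a study that used CD1 and C57BL/6J mice, but the sources used here do not say which strain, or how many animals, gave each tag. All conditions used the vector, and the plasmid was delivered to the retina as a whole rather than to rods alone. The paper states, however, that cones arise only in the embryo and are never transfected in this way. With 1 pool of cells per tag, no comparison of tags or cells could be tested. All intervals below are exact 95% intervals that cover counting error only.

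Rods capture light in the outer segment, a stack of membrane discs built on a modified cilium. Each disc is closed by a hairpin rim held in shape by tetraspanins, new discs form as evaginations at the base of the segment, and a microtubule axoneme runs along one side. Proteoglycans fill the space around the segments, and junctions at the outer limiting membrane anchor the photoreceptors to Müller glia. Mutations in many of these genes are known causes of inherited retinal degeneration.

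The matrix held 834 barcodes with 2487110 UMIs and a median of 2395 UMIs per barcode. After removal of 24 doublets, 810 barcodes remained, of which 653 (80.6%) were rod-like, 87 Müller glia-like, 43 bipolar-like, 17 microglia-like and 10 cone-like. The paper annotated most of the sorted cells as rods, with a few bipolar cells and Müller glia. In the rod-like barcodes all 10 rod markers were seen in 25% or more of the barcodes, and their summed level was 109148 UMIs per 1000000 non-mitochondrial UMIs (CPM, the scale used throughout), against 363 CPM for the 8 cone markers and 137 CPM for the 10 bipolar markers. The members were kept out of the clustering and out of the marker lists. The name Müller glia-like is weak, since those barcodes had a median of 51.2% mitochondrial UMIs, 3 of 9 Müller markers but 5 of 10 rod markers in 25% or more of the barcodes, and a summed level of 14346 CPM of Müller markers against 19984 CPM of rod markers. The stated quality filter of 200 to 2500 genes and at most 18% mitochondrial UMIs kept 199, 136 and 24 rods in tags 1, 2 and 3, with medians of 2921, 2645.5 and 2649.5 UMIs. Transcripts of the misexpressed genes were few in these rods, at 0, 8 and 0 UMIs of Lmna and 8, 11 and 57 UMIs of Lbr in tags 1, 2 and 3.

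Reference sequences upstream of 4 members are shown first, for Prph2 and Rom1 as the most abundant pair, for Abca4 as the member with the highest ratio between rods of high and low mitochondrial share, and for Impg1 as the member with the widest ratio between tags. They are RefSeq windows on GRCm38.p6 (mm10), read 5′ to 3′ on the strand of the gene and ending where the GENCODE gene model begins. Prph2 is at chr17:46910228-46910458 (plus strand), Rom1 at chr19:8929357-8929606 (minus), Abca4 at chr3:122044210-122044442 (plus) and Impg1 at chr9:80465482-80465688 (minus). Capitals mark TAATCC or its reverse complement GGATTA, the core bound by the photoreceptor homeodomain factor Crx.

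Prph2: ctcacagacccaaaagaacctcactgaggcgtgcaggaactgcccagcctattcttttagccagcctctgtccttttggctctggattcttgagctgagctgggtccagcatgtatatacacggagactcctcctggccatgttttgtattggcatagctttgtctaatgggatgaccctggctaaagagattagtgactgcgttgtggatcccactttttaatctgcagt

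Rom1: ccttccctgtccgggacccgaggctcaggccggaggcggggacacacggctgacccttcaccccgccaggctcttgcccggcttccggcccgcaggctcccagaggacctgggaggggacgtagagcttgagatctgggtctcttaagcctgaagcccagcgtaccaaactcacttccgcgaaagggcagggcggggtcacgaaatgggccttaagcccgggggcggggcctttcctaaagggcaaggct

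Abca4: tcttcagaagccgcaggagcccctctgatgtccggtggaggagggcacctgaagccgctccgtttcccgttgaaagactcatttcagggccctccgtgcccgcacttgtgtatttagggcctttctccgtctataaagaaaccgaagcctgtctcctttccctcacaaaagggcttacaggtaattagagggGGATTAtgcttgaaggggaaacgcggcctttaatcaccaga

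Impg1: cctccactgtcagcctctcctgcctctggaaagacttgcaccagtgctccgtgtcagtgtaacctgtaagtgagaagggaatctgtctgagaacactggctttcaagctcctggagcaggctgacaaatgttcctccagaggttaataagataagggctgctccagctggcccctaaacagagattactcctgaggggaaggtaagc

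Windows were given for 8 of the 10 members, 9 windows in all, since Prom1 had a pair. In the 250 bases before the RefSeq start, 1 member had a Crx core, the GGATTA of Abca4 at 58 bases before the start, and 0 members had TGCTGA or its reverse complement TCAGCA, a core bound by the rod factor Nrl. Of all 32851 windows of this length, 6.25% held the Crx core on either strand and 16.1% the Nrl core. The absence of these letters from the other windows says nothing about sites elsewhere.

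In the 363 rods that passed the filter, tagged or not, the members made up 2.75% of non-mitochondrial UMIs, and 81.7% of that came from the tetraspanins Prph2 and Rom1. Prph2 (ENSMUSG00000023978, chromosome 17, 46910459 to 46924933, plus strand) encodes peripherin-2, which forms the curved disc rim. It had 10133 UMIs in 355 of 363 rods, from 0 to 150 per rod with a median of 25, or 11240 CPM (interval 11023 to 11461). Rom1 (ENSMUSG00000071648, chromosome 19, 8927391 to 8929356, minus strand), its partner in the rim complexes, had 10087 UMIs in 358 rods, from 0 to 141 with a median of 26, or 11189 CPM (10972 to 11410). The pair thus had equal levels within counting error. Per kb of exons, with 3.002 kb in Prph2 and 1.517 kb in Rom1, the order was 3744 and 7376 CPM per kb. Since a 3′ library counts transcript ends, the difference between these scales follows the lengths alone.

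Rp1 came next. It encodes a microtubule-binding protein of the axoneme that keeps discs in register. Rp1 (ENSMUSG00000025900, chromosome 1, 3999557 to 4409241, minus strand) had 1935 UMIs in 275 of 363 rods, from 0 to 50 with a median of 4, or 2146 CPM (2052 to 2244). Its paralog Rp1l1 (ENSMUSG00000046049, chromosome 14, 63992506 to 64035025, plus strand) had 224 UMIs in 64 rods, or 248 CPM (217 to 283). The remaining members lay between 237 and 507 CPM. Prom1, a pentaspan protein of the nascent disc edge, had 457 UMIs in 116 rods. Cdhr1, a protocadherin at the same edge, had 443 UMIs in 140 rods. Abca4, the flippase that clears retinal from discs, had 441 UMIs in 118 rods. The matrix proteoglycans Impg2 and Impg1 had 443 UMIs in 127 rods and 379 UMIs in 111 rods. Crb1, a polarity protein of the outer limiting membrane, was lowest with 214 UMIs in 69 rods, or 237 CPM (207 to 271).

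The order was therefore Prph2, Rom1, Rp1, Prom1, then Cdhr1 and Impg2 at 491 CPM each, Abca4, Impg1, Rp1l1 and Crb1. Neighbors in this order other than Rom1 and Rp1, Rp1 and Prom1, and Impg1 and Rp1l1 had intervals that overlapped. Per kb of exons Rom1 was first, Impg1 was the fourth at 116 CPM per kb, and Crb1 was last at 16.4 CPM per kb. The members lie on 8 chromosomes, with pairs on chromosome 1 (Rp1 and Crb1) and chromosome 14 (Cdhr1 and Rp1l1), and all are protein-coding.

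A single rod showed only some of the members. The median rod had UMIs of 5 of the 10 genes, 2 rods had 9, 0 rods had all 10, and 3 rods had 0. UMIs of the less abundant members were grouped in few rods. In tag 1, Prom1 had 239 UMIs in 65 of 199 rods (32.7%), where independent UMIs at the depths of those rods would reach 65.7%, and each positive rod held 3.68 of them on average. For Abca4 the corresponding shares were 33.2% and 65.6%, for Impg1 29.1% and 59.4%, and for Crb1 18.1% and 46.9%, with 27 of the 135 Crb1 UMIs of tag 1 in 1 rod. Because UMIs of a gene came in groups, the intervals of these members are too narrow. The largest count of all was 801 Rp1 UMIs in 1 rod of tag 1 with 7614 genes and 85822 UMIs, which the filter removed.

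Across 330 filtered rods thinned to 1100 non-mitochondrial UMIs, Spearman's correlation between pairs of members ranged from -0.12 to 0.20 with a median of 0.02 over the 45 pairs. The highest values belonged to Prph2 with Rom1 (0.20) and Rp1 with Rp1l1 (0.14). Among 436 other genes seen in at least 20% of these rods, those whose counts were among the most like the summed members were Nr2e3 (0.29), Elovl4 (0.24), Gnb1 (0.22) and Rbp3 (0.20), against a median of -0.002 for all 436. These rods share 1 run, counts are sparse, and the correlations are given as descriptions only.

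Prph2 and Rom1 were followed as a pair because their proteins assemble together. In the rod-like barcodes as a whole, with no filter, Prph2 had 16566 and Rom1 16625 UMIs, so Prph2 held 49.9% of the pair (interval 49.4% to 50.5%). In filtered rods its shares for tags 1, 2 and 3 were 49.2% (48.3% to 50.1%), 51.4% (50.3% to 52.6%) and 50.3% (47.2% to 53.4%), and in rods over the mitochondrial limit it was 49.3%. The balance of the sums thus stayed near equal in each of these groups. Single rods varied more. Among the 327 filtered rods with at least 20 UMIs of the pair, the share ranged from 7.94% to 93.9%, with quartiles of 38.1% and 60%. Outside rods the balance differed. Cone-like barcodes held 98 UMIs of Prph2 and 54 of Rom1, a share of 64.5% (56.3% to 72.1%), and bipolar-like barcodes held 15 and 116, a share of 11.5% (6.55% to 18.2%).

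**Figure D1:**
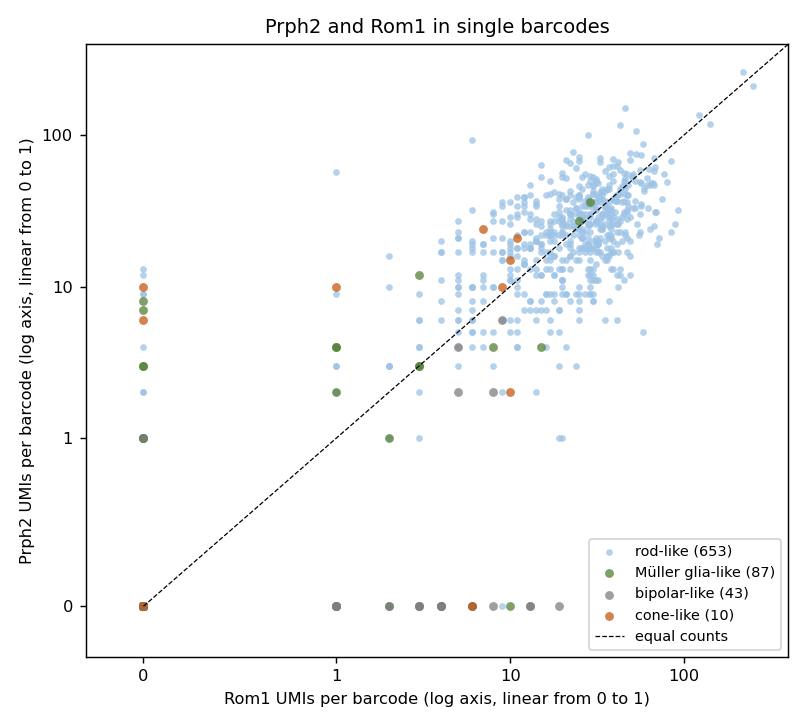
UMIs of Prph2 (vertical axis) against UMIs of Rom1 (horizontal axis) in each barcode of 4 classes, on axes that are linear from 0 to 1 and logarithmic above, with a dashed line of equal counts. Rod-like barcodes lie around the line with a wide spread, and 16 of the 20 bipolar-like barcodes with Rom1 lie at 0 UMIs of Prph2.

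Among the classes, rods had the highest level of 9 of the 10 members, and the exception was Cdhr1. The 10 cone-like barcodes had 44 Cdhr1 UMIs in 4 barcodes, or 1566 CPM (1138 to 2103), against 572 CPM (535 to 611) in rod-like barcodes, but 33 of the 44 came from 1 barcode. Cones held Prph2 at 3489 CPM in 8 of 10 barcodes and Rom1 at 1922 CPM in 7, against 10843 and 10881 CPM in rods. Abca4 was at 534 CPM in cones (299 to 881) and 573 CPM in rods (535 to 612), a difference not detectable at this depth. Rp1 was lower in cones, at 320 CPM (147 to 608) against 2994 CPM in rods, a level that includes the rod with 801 UMIs. Prom1 had 0 UMIs in cones, which allows up to 107 CPM at 3 counts, against 565 CPM in rods. This limit and the later ones in the text for counts of 0 are levels of 3 UMIs, somewhat below the upper end of the exact interval. Gnat1, the rod transducin subunit, had 7 UMIs in 3 of these barcodes, or 249 CPM, which is 3.66% of its rod level (1.47% to 7.54%). Prph2 was at 32.2% of its rod level, Rom1 at 17.7%, Abca4 at 93.2% and Rp1 at 10.7%. Gnat1 alone is a narrow reference for rod RNA in cone-like barcodes. The 10 rod markers summed to 33606 CPM there, with 3 of them at 0, against 109148 CPM in rod-like barcodes. The summed members were at 30.3% of their rod level (26.5% to 34.4%), and 1 cone-like barcode held 80 of their 237 UMIs. The part of rod RNA in the cone-like levels was not tested.

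Bipolar-like barcodes were deep, with a median of 7778 UMIs, and gave the lowest limits for counts of 0 among the classes. Cdhr1, Rp1, Rp1l1 and Impg1 had 0 UMIs in 43 barcodes, which allows up to 12.2 CPM each. Prom1 and Crb1 had 1 UMI each, Abca4 3, and Impg2 9, of which 8 lay in 1 barcode. Prph2 had 15 UMIs in 5 barcodes, or 60.8 CPM (34 to 100.2), and Gnat1 had 8 in 5, or 32.4 CPM (14 to 63.9). Rom1 had the most UMIs of the members, 116 in 20 of 43 barcodes (46.5%) from 0 to 19 per barcode, or 470 CPM (388 to 564). That is 4.32% of the rod level (3.57% to 5.18%), where Gnat1 was at 0.476% of its rod level (0.206% to 0.938%) and Prph2 at 0.56%. Impg2, with 8 of its 9 UMIs in 1 barcode, was at 6.74% (3.08% to 12.8%) and Abca4, with 3 UMIs, at 2.12%. The 43 bipolar-like barcodes comprised 0 of tag 1, 30 of tag 2, 1 of tag 3 and 12 without a tag. Of the 20 barcodes with Rom1, 4 had a Prph2 UMI, and 16 were of tag 2, 1 of tag 3 and 3 without a tag. Their median depth was 9318 UMIs against 3750 in the bipolar-like barcodes without Rom1. Thinned to 500 non-mitochondrial UMIs, 5 of 38 barcodes held Rom1 (13.2%, interval 4.41% to 28.1%), 1 held Prph2 and 0 held Gnat1, with 5 shallower barcodes left out.

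In the 17 microglia-like barcodes, which should lack all members, 9 of the 10 had 0 UMIs and Rom1 had 2, or 31.3 CPM (3.79 to 113). A count of 0 there allows up to 47 CPM. The share of barcodes with Rom1 was 11.8%, at a median of 3372 UMIs, against 95.3% of rods at a median of 2406 UMIs.

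**Figure D2:**
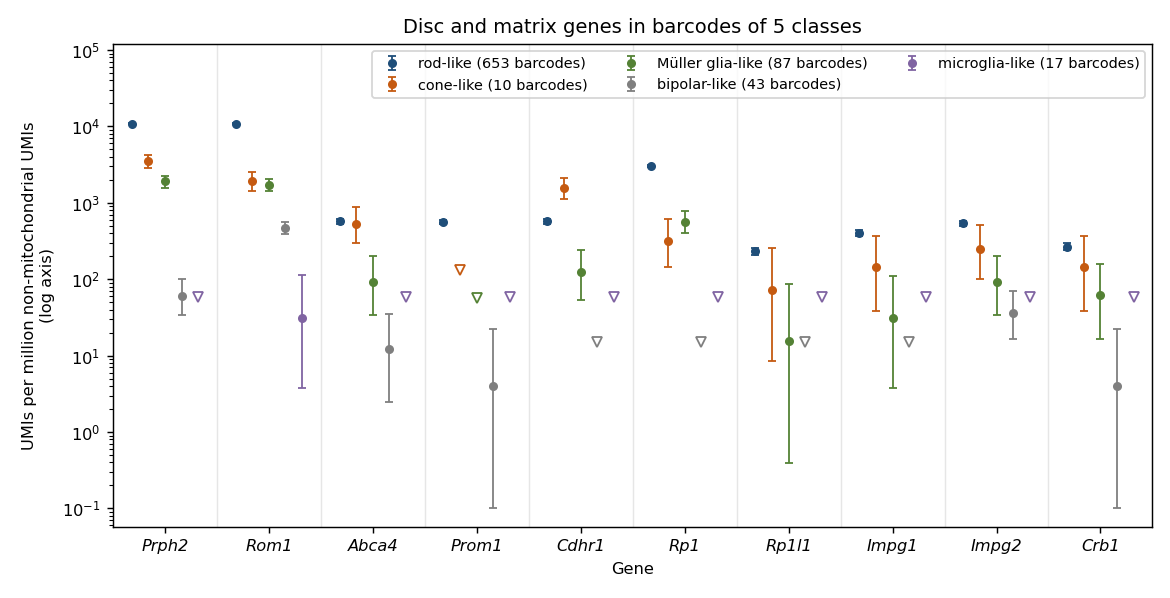
Levels of the 10 genes (CPM of non-mitochondrial UMIs, log axis) in rod-like, cone-like, Müller glia-like, bipolar-like and microglia-like barcodes, with exact Poisson 95% intervals as bars. Open triangles mark genes with 0 UMIs at the upper limit of that interval, and Rom1 at 470 CPM is the highest bipolar-like point.

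Müller glia-like barcodes held 300 UMIs of the members, or 4608 CPM against 27873 CPM in rods, which is 16.5% of the rod level (14.7% to 18.5%). Gnat1 was at 20.3% of its rod level in the same barcodes (16.3% to 25%). Prph2 at 17.6%, Rom1 at 15.8%, Abca4 at 16.1%, Cdhr1 at 21.5%, Rp1 at 19% and Impg2 at 17% lay near that value. Prom1 had 0 UMIs, which allows up to 46.1 CPM. Impg1 had 2 UMIs, both in 1 barcode, or 7.61% of its rod level (0.921% to 27.5%). This RNA was not spread evenly, since 59 of 87 barcodes had 0 member UMIs, 5 barcodes held 65% of them, and 1 barcode held 82 with 6 UMIs of Müller markers. Without that barcode the members were at 3579 CPM. Thinned to 500 non-mitochondrial UMIs, 10 of 50 barcodes held Prph2 (20%) against 591 of 632 rods (93.5%). All 8 members with at least 20 expected UMIs in both classes were at least 1.5-fold higher in rods, where 42.1% of the 499 genes with that many UMIs were, and 29.5% were lower. Their median log2 ratio was 2.51, against 0.22 over all 499 genes. Of the other 22 genes of the outer segment, matrix and junctions, 11 had enough UMIs and all 11 were higher in rods.

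Among the tags, tag 1 held the summed members at 26448 CPM (26013 to 26889), tag 2 at 30560 CPM (29944 to 31186) and tag 3 at 20993 CPM (19853 to 22181). These intervals did not overlap, but they cover counting error only and leave out the spread among rods, so they are too narrow for comparing tags. Summed UMIs per rod had medians of 67 in tag 1, 65 in tag 2 and 50.5 in tag 3, with ranges of 0 to 265, 2 to 164 and 0 to 107, so that single rods of the tags overlapped widely. The log2 ratio was 0.21 for tag 2 over tag 1, -0.33 for tag 3 over tag 1 and -0.54 for tag 3 over tag 2. The median mitochondrial share of these rods was 10.9%, 14.4% and 11.4%. Gnat1, at 5662, 7333 and 5050 CPM, had the same order as the summed members. The 8 cone markers summed to 593, 75.2 and 1341 CPM, with 3, 5 and 6 of them at 0, and the nuclear RNA Malat1 was at 5485, 471 and 1705 CPM. The part of these in the differences between tags was not tested.

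Of the disc rim genes, Prph2 and Rom1 followed this order and Abca4 did not. Prph2 was at 10638 CPM (10362 to 10919), 12797 CPM (12399 to 13204) and 8692 CPM (7964 to 9468) in tags 1, 2 and 3, and Rom1 at 10989, 12087 and 8592 CPM. Both were highest in tag 2 and lowest in tag 3, by less than 1.5-fold in each pair of tags. Nearly every rod had Prph2, namely 195 of 199, 135 of 136 and 22 of 24. Abca4 had 238, 174 and 29 UMIs, or 448, 569 and 480 CPM, with intervals that overlapped, and 16 of the 29 UMIs of tag 3 lay in 1 rod. The genes of disc formation had no such order. Prom1 was at 450 CPM (394 to 510), 591 CPM (508 to 684) and 613 CPM (431 to 844), and Cdhr1 at 468, 493 and 596 CPM.

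Rp1 was nearly equal in tags 1 and 2, at 2212 CPM (2088 to 2342) and 2291 CPM (2124 to 2467), and lower in tag 3, at 960 CPM (729 to 1241). Tag 3 held 58 UMIs over 16 of its 24 rods, tag 1 had 1176 over 148 of 199, and tag 2 had 701 over 111 of 136. The log2 ratio of tag 3 was -1.19 over tag 1 (-1.61 to -0.82) and -1.24 over tag 2 (-1.67 to -0.87). Counting 1 UMI per gene and rod, relative to the sum of such counts over all non-mitochondrial genes, gave a log2 ratio over tag 1 of 0.028. This scale depends on the number of genes seen per rod, so it is not the ratio of the shares of positive rods. Thinned to 1100 non-mitochondrial UMIs per rod, the shares with Rp1 were 68.1%, 70.4% and 54.5% (12 of 22, interval 32.2% to 75.6%). Tag 3 thus had fewer Rp1 UMIs per positive rod (3.63 against 7.95 and 6.32), while its share of positive rods, 66.7% without thinning against 74.4% and 81.6%, did not differ beyond counting error. Rp1l1 had 115, 98 and 11 UMIs, or 216, 320 and 182 CPM, with too few in tag 3 for the fold rule.

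The matrix genes went in opposite directions in tag 3 against tag 1. For Impg1, tag 1 had 198 UMIs over 58 rods, tag 2 had 176 over 51, and tag 3 had 5 over 2, which gave levels of 372 CPM (322 to 428), 575 CPM (493 to 667) and 82.8 CPM (26.9 to 193). The log2 ratio of tag 3 was -2.04 over tag 1 (-3.81 to -0.92) and -2.66 over tag 2 (-4.44 to -1.55). Thinned, the shares with Impg1 were 23.6%, 32% and 9.09% (2 of 22, interval 1.12% to 29.2%), and without thinning 29.1%, 37.5% and 8.33%. In the 11 rods of tag 3 over the mitochondrial limit Impg1 had 6 UMIs, all in 2 rods, or 366 CPM (134 to 796). Impg2 had 213, 183 and 42 UMIs in 68, 47 and 11 rods, or 401 CPM (349 to 458), 598 CPM (514 to 691) and 695 CPM (501 to 940), with log2 ratios of tag 3 of 0.81 over tag 1 (0.28 to 1.28) and 0.23 over tag 2 (-0.30 to 0.71). Crb1 had 135, 73 and 6 UMIs, or 254, 239 and 99.3 CPM, and its 6 UMIs in tag 3 were too few for the fold rule.

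By the fold rule, a change of 1.5-fold with at least 20 expected UMIs in both groups, 1 of 10 members was higher in tag 2 than in tag 1, namely Impg1 at 1.54-fold, and 0 were lower. Over 2240 genes, 14.6% were higher and 17.6% lower. For tag 3 over tag 1, 1 of 8 members with enough UMIs was higher (Impg2, 1.75-fold) and 2 were lower (Rp1, 2.29-fold, and Impg1, 4.10-fold), beside 14.8% and 16.2% of 474 genes. For tag 3 over tag 2, 0 of 8 were higher and 2 were lower (Rp1 and Impg1), beside 20% and 18.6% of 484 genes. With so few members, these counts lay close to the shares over all genes. The median log2 ratio of the members was 0.31, -0.08 and -0.36, against -0.01, 0.06 and 0.01 over all genes counted. The 3 comparisons share their tags and are not independent.

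**Figure D3:**
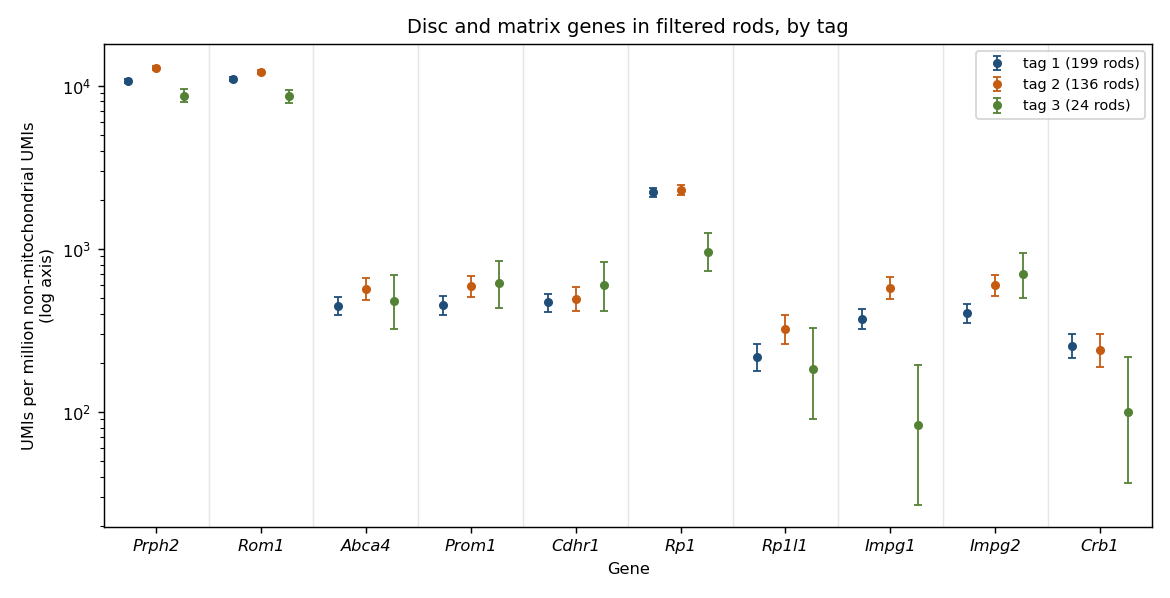
Levels of the 10 genes (CPM of non-mitochondrial UMIs, log axis) in the filtered rods of tag 1, tag 2 and tag 3, with exact Poisson 95% intervals as bars. Rp1 and Impg1 of tag 3, at 960 and 82.8 CPM, lie below the intervals of both other tags.

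The other 22 genes gave 16 with enough UMIs for tags 2 and 1. Of these, 2 were higher in tag 2, namely Egflam (the matrix protein pikachurin, 1.21 on the log2 scale) and Tmem30a (a flippase subunit, 0.93), and 3 were lower, namely BC027072 (-1.27), Mpp4 (-0.62) and Mfge8 (-0.93). For tag 3 over tag 1, 10 had enough UMIs, 0 were higher and 3 were lower, namely the genes of the rod cation channel, Cnga1 (-0.66) and Cngb1 (-0.83), and of the exchanger beside it in the plasma membrane, Slc24a1 (-0.61). For tag 3 over tag 2, 11 had enough UMIs, 0 were higher and 6 were lower, namely the same 3 genes (-0.88, -1.11 and -0.90) with Tulp1 (-0.63), Rbp3 (-0.74) and Elovl4 (-0.60). The median log2 ratio of this list was 0.25, -0.26 and -0.60 in the 3 comparisons.

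Rods over the mitochondrial limit numbered 236 with 417501 non-mitochondrial UMIs, 40 of them of tag 1, 144 of tag 2, 11 of tag 3 and 41 without a tag, and were set against the 363 rods at or under it. The summed members were at 32594 CPM (32049 to 33146) over the limit and 27461 CPM (27120 to 27805) under it, a log2 ratio of 0.25. Counted per 1000000 of all UMIs, mitochondrial ones included, the ratio was 0.039, so the size of the difference depends on the scale. Gnat1 had a log2 ratio of 0.50 on the first scale. Over all tags, depth and Malat1 moved with the split, with medians of 2167.5 and 2756 UMIs per rod and 388 and 3519 CPM of Malat1. Within tag 2, however, Malat1 was at 530 CPM over the limit and 471 CPM under it, a log2 ratio of 0.17 (-0.17 to 0.51). It was lower over the limit within tag 1 (13.9 and 5485 CPM) and tag 3 (122 and 1705 CPM). The part of depth, Malat1 and the mix of tags was not tested.

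Abca4 and Cdhr1 differed most. Abca4 had 365 UMIs in 96 of 236 rods over the limit and 441 in 118 of 363 under it, or 874 CPM (787 to 969) and 489 CPM (445 to 537), a log2 ratio of 0.84 (0.63 to 1.04). Within tag 1 the ratio was 1.24 (0.85 to 1.62) and within tag 2 it was 0.54 (0.25 to 0.83). Cdhr1 had 359 UMIs in 93 rods over the limit and 443 in 140 under it, or 860 CPM (773 to 954) and 491 CPM (447 to 539), a ratio of 0.81 (0.60 to 1.01), with 0.46 (-0.04 to 0.91) within tag 1 and 0.72 (0.42 to 1.03) within tag 2. Thinned to 1000 non-mitochondrial UMIs, 35% of rods over the limit (71 of 203, 28.4% to 42%) and 24.5% under it (83 of 339, 20% to 29.4%) held Abca4, against 40.7% and 32.5% without thinning. For Cdhr1 the thinned shares were 32.5% and 25.1%. The intervals of the thinned shares overlapped for both genes.

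Impg2 was at 714 CPM over the limit and 491 CPM under it, a ratio of 0.54 (0.32 to 0.75), and Prom1 at 685 and 507 CPM, a ratio of 0.44 (0.22 to 0.65). For Prom1 the ratio within tag 2 was 0.03 (-0.28 to 0.34), and the 41 rods over the limit without a tag held it at 1516 CPM (1195 to 1898). With the limit at 25% instead, the ratio of Impg2 was -0.023. Prph2 (0.20) and Rom1 (0.25) were a little higher over the limit. Rp1 (0.09), Impg1 (0.04), Crb1 (0.02) and Rp1l1 (-0.22) had intervals that include 0. Within tag 2, however, Rp1l1 was at -0.64 (-1.15 to -0.16) and Impg1 at -0.48 (-0.83 to -0.13). In the 11 rods of tag 3 over the limit the summed members were at 20855 CPM, against 20993 CPM in its 24 rods under it.

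Over the limit, 2 of 10 members were at least 1.5-fold higher and 0 were lower, beside 11.3% and 16.4% of 2811 genes, so the count of members is close to the share of all genes. The median log2 ratio of the members was 0.23, against -0.04 over all genes, whose quartiles were -0.39 and 0.29. Of the 22 other genes, 17 had enough UMIs, with 1 higher (Tmem30a, 0.89), 1 lower (BC027072, -1.99) and a median of 0.13.

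**Figure D4:**
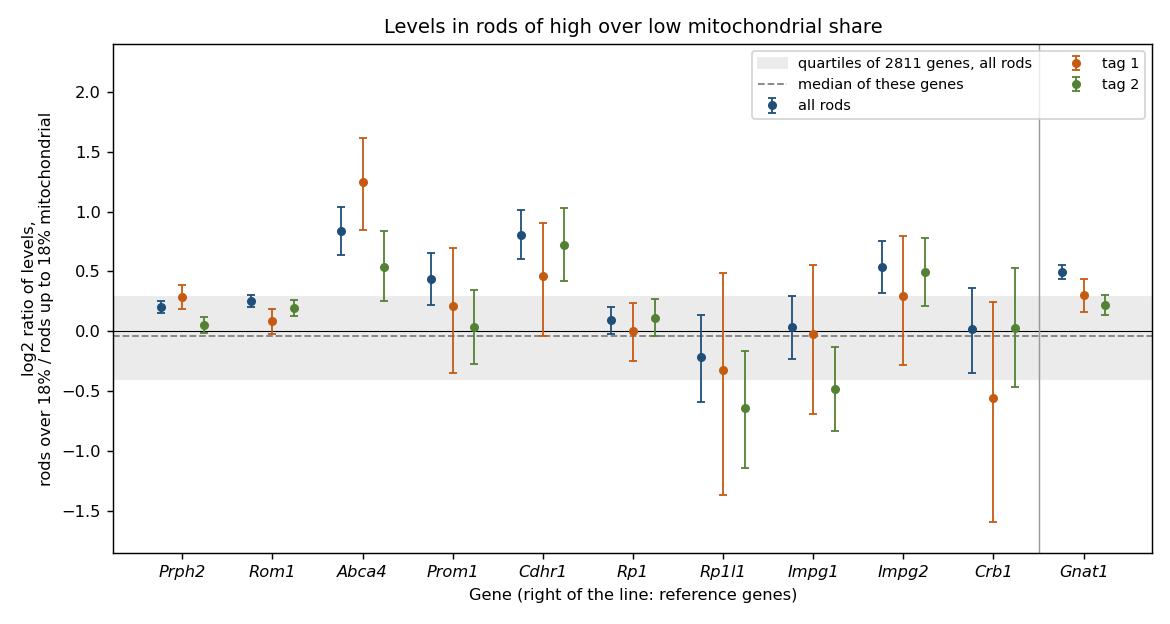
Log2 ratio of the level in rods over 18% mitochondrial UMIs to that in rods up to 18%, for the 10 genes and for Gnat1, in all rods, in tag 1 and in tag 2, with exact conditional 95% intervals as bars. The gray band holds the middle of 2811 genes (quartiles -0.39 and 0.29), and the points of Abca4 lie above it in all 3 sets.

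Split more finely, the rods with 200 to 2500 genes fell into 5 ranges of mitochondrial share with 109, 128, 126, 106 and 130 rods. Abca4 was at 309, 585, 549, 811 and 943 CPM from the lowest range to the highest, and Cdhr1 at 419, 566, 478, 798 and 928 CPM. Prph2 was at 9970 CPM in the lowest and 13669 CPM in the highest range. Impg2 was at 378 and 300 CPM in the ranges up to 14% and between 657 and 788 CPM above, so its step lay below the limit of 18%. Rp1 was highest in the lowest range at 2726 CPM and lowest in the next at 1759 CPM. Prom1 was at 458 CPM between 18% and 22% and at 933 CPM above 22%. Impg1 was lowest between 18% and 22%, at 243 CPM, and highest above 22%, at 637 CPM. The tags were mixed unequally over these ranges, with 86 rods of tag 1 and 13 of tag 2 in the lowest and 22 and 62 in the highest.

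**Figure D5:**
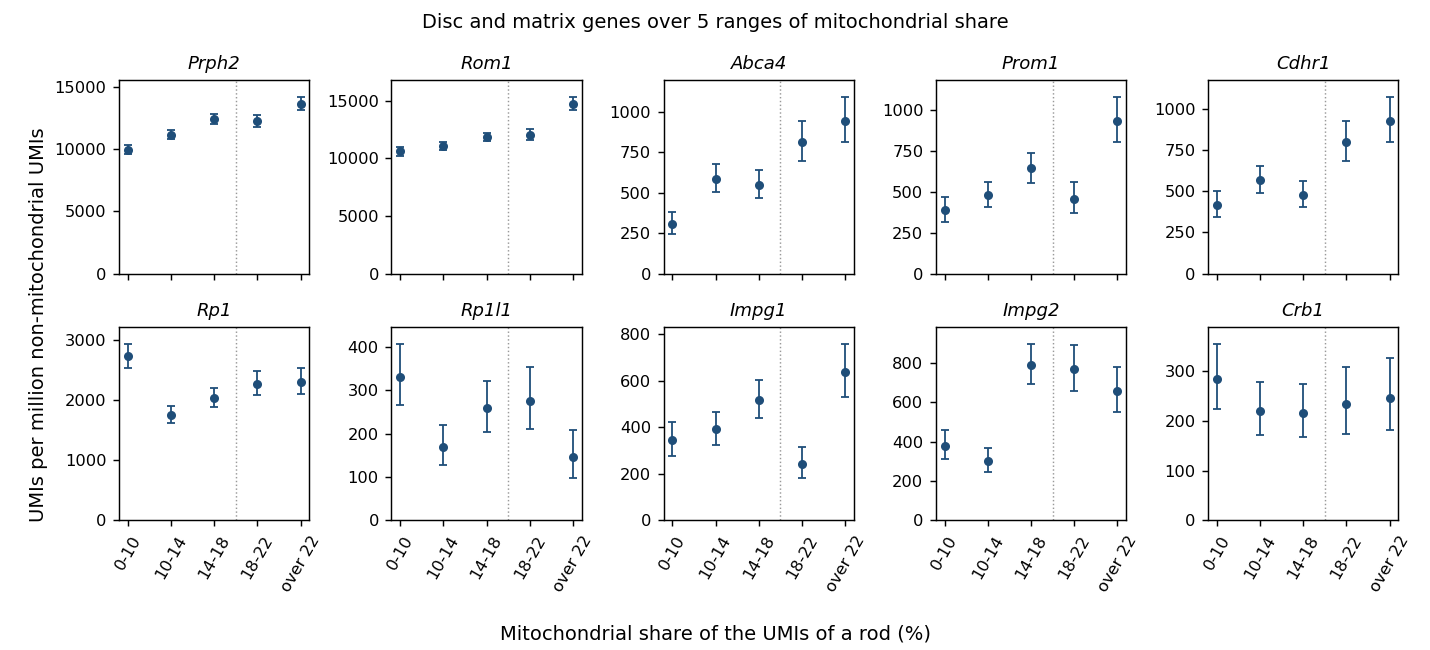
Levels of the 10 genes (CPM of non-mitochondrial UMIs, linear axes from 0) in rods of 5 ranges of mitochondrial share, with exact Poisson 95% intervals as bars and a dotted line at the limit of 18%. Abca4 goes from 309 to 943 CPM and Prph2 from 9970 to 13669 CPM between the outer ranges, whereas Crb1 stays between 216 and 283 CPM.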

How the data were processed

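Single-cell RNA-seq of sorted mouse retina cells was read from 1 expression matrix and 1 matrix of sample tags. The authors deposited whole-number counts of UMIs per gene and barcode, made with Cell Ranger against mm10, and tag counts per barcode. The submitters' processing notes name Cell Ranger 6.1.2 and Scanpy 1.9.1, whereas the matrix header names version 3.1.0. The deposited table of tag calls (text) placed 264, 316 and 41 barcodes in tags 1, 2 and 3. Of 834 barcodes, 645 were in the tag matrix.

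All 834 barcodes were clustered with Scanpy 1.11.5 and leidenalg 0.10.2, and clusters were named from marker lists. The 10 genes, the other 22 genes, Lmna, Lbr, Malat1, the 13 mitochondrial genes and hemoglobin genes took no part in the clustering. Barcodes called as tag doublets (22) or by Scrublet (2) were then removed. Levels were sums of counts over barcodes per 1000000 non-mitochondrial UMIs, with exact Poisson, Clopper-Pearson and conditional intervals at 95% (SciPy 1.17.1, NumPy 2.4.6, Python 3.11.15). Thinning drew a fixed number of UMIs per barcode. Log2 ratios used a pseudocount of 0.5 UMI. With 1 pool per tag there was no test. A gene counted as higher or lower at 1.5-fold with at least 20 UMIs expected in both groups, and the same was counted over all genes.

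The genes named were all 10 members, the genes of the other list past the fold, and the 5 genes most like the summed members, of which 1 is not reported here. Exon lengths and positions came from the GENCODE annotation of mm10, to which 99.6% of gene identifiers matched, and upstream sequences from RefSeq. The members and lists were chosen with earlier results of these data known. Alternatives covered the scale, the filter, the mitochondrial limit, tag calls, doublets and clustering.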

Additional observations from a re-analysis of the deposited data

How the results depend on the processing

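The intervals above cover counting error only, 1 run held all cells, tag 3 rests on 24 rods, and the cause of the shifts below was not tested except where stated. Of the values for single members, 440 of 500 stayed within the interval of the value above, 52 moved further and 8 with an interval that excluded 0 changed sign. Counting 1 UMI per gene and rod by construction saturates genes seen in nearly every rod. Levels were then relative to the sum of these counts over all non-mitochondrial genes. They therefore depend on the genes seen per rod, with medians of 609 in tag 1 and 550.5 in tag 3. On that scale tag 3 over tag 1 was 0.079 for Prph2, 0.12 for Rom1, 0.028 for Rp1, 0.47 for Crb1 and 0.033 for the summed members. Tag 3 over tag 2 was 0.067 for Crb1. The sign of such a value need not be that of the difference in shares of rods with a UMI. Stricter tag calls (169, 119 and 17 rods) gave -0.046 for Abca4 in tag 2 over tag 1. Between rods of high and low mitochondrial share, Prph2 was at -0.0028 per 1000000 of all UMIs, and Impg2 at -0.023 with the limit at 25%.

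The summed members for tag 2 over tag 1 were at 0.15 per 1000000 of all UMIs, 0.27 with 1 UMI per gene and rod, 0.17 without Prph2 and 0.34 with no filter. For tag 3 over tag 2 they were at -0.24 with 1 UMI per gene and rod and -0.44 with clustering of filtered barcodes. For high over low mitochondrial share they were at 0.039 per 1000000 of all UMIs, 0.29 after centring on all genes, 0.38 with 1 UMI per gene and rod and 0.29 with the limit at 15%. For rod-like over Müller glia-like barcodes they were at 3.53 per 1000000 of all UMIs, 2.38 after centring, 1.44 with 1 UMI per gene and barcode, 3.41 as a mean over barcodes, 2.99 without the barcode of most member UMIs in each class and 1.85 with barcodes up to 18% mitochondrial UMIs. At a clustering resolution of 0.5 no cluster was Müller glia-like, so that ratio has no value there.

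Members past a 2-fold limit numbered 0 for tag 2 over tag 1 and 0 for the mitochondrial split. With 50 expected UMIs, 1 was past 1.5-fold for tag 3 over tag 1, 1 for tag 3 over tag 2 and 3 for rod-like over Müller glia-like, and with 10 expected UMIs 4 were for tag 3 over tag 2. Impg1 ranged from -2.09 to -1.24 for tag 3 over tag 1 and from -2.68 to -1.73 for tag 3 over tag 2, Rp1 from -1.44 to -0.32 for the latter, and Abca4 from 0.63 to 0.88 for the mitochondrial split. Calling doublets among the filtered barcodes, an alternative chosen after seeing the data, marked 5 barcodes and moved none of these values outside their intervals.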
